A study of Homo sapiens with 95 samples.

Results

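The response of PIK3CA-overexpressing AALE cells to cigarette smoke condensate (CSC) was taken from 6 of the 95 wells of the series. The members are the wells titled PIK3CA-CSC-1, PIK3CA-CSC-2 and PIK3CA-CSC-3, and the vehicle wells PIK3CA-DMSO-1, PIK3CA-DMSO-2 and PIK3CA-DMSO-3. AALE is an immortalized human bronchial epithelial line, and its transcripts were read by 3′ digital gene expression (3′DGE). In this assay a well barcode and a unique molecular identifier (UMI) let each captured transcript end be counted once. The CSC wells received 24 µg/ml condensate and the control wells DMSO. The labels give no length of exposure. The study describes the samples of a condition as biological replicates, and neither it nor the labels say whether the wells of a group came from separate cultures before plating, so the p-values measure the spread between wells. Other wells of the same PIK3CA cells received benzo[a]pyrene (BaP) at 173 µM or the tobacco nitrosamine NNK at 490 µM, and they are used for comparison below.

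For comparison across cell populations, CSC and DMSO wells of 4 others were used, with 3 wells a side in each: cells expressing the HcRed reporter (the control of the overexpression lines), cells given Cas9 and GFP but no guide (the control of the CRISPR lines), cells overexpressing NRF2, and FAT1 CRISPR knockouts. All are derivatives of the AALE line, and the labels name no clone or promoter. In the plate layout the PIK3CA wells sat in columns 10 to 12, with DMSO in row A and CSC in row C. Chemical and plate row therefore cannot be told apart.

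Cigarette smoke carries polycyclic aromatic hydrocarbons, which bind the aryl hydrocarbon receptor (AHR). The activated receptor pairs with ARNT and turns on genes such as CYP1A1 and CYP1B1, which oxidize these compounds, and TIPARP, which feeds back on the receptor. Smoke also carries electrophiles that release NRF2 from its inhibitor KEAP1. NRF2 in turn activates genes for quinone reduction, the thioredoxin and glutathione systems and iron storage through antioxidant response elements. PIK3CA encodes the catalytic subunit p110α of PI3-kinase, which signals through AKT and mTOR.

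Promoter windows of 4 genes that rose are printed here because each holds the letters of a core motif tied to one of these pathways. Whether AHR or NRF2 binds at the marked letters was not tested. The windows span 250 bases before to 50 after the gene start and were taken from RefSeq on GRCh38.p14. Sites further upstream lie outside them. The CYP1A1 window lies at chr15:74725479-74725778 on the minus strand and that of TIPARP at chr3:156674340-156674639 on the plus strand. The TXNRD1 window lies at chr12:104215529-104215828 on the plus strand and that of GPX2 at chr14:64942696-64942995 on the minus strand. Each sequence runs 5′ to 3′ on the strand of its gene. In CYP1A1 and TIPARP the capitals mark GCGTG, the core bound by AHR and ARNT, or its reverse complement CACGC. In TXNRD1 and GPX2 they mark TGACNNNGC, the core of an antioxidant response element, or its reverse complement.
CYP1A1: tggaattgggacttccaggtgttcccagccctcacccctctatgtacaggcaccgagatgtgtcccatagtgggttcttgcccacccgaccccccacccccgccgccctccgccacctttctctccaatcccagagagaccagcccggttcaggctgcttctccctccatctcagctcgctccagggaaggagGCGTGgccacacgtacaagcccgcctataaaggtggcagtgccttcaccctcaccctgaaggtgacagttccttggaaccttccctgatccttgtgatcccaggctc
TIPARP: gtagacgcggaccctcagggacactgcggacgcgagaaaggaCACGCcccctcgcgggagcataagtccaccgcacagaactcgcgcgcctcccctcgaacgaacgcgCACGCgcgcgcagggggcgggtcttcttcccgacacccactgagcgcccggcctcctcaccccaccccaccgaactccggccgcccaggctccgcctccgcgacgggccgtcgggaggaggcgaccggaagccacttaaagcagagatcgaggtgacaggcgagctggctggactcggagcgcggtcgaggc
TXNRD1: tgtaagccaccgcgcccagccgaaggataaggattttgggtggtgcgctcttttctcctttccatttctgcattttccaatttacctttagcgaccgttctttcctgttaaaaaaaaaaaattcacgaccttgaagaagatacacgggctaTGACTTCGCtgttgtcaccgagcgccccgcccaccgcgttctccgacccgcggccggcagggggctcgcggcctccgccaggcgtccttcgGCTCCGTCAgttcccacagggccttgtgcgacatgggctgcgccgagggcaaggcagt
GPX2: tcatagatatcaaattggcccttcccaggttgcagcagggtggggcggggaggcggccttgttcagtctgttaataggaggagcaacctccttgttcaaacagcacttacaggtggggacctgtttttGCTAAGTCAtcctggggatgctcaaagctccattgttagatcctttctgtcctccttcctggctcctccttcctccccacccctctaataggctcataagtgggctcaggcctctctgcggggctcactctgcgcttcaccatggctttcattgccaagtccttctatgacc

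Both motifs were searched on both strands of every window, and neither search excluded overlap with other motifs. GCGTG was present in 38 of the 81 windows matched to genes that rose with CSC (46.9%), in 26 of the 51 matched to genes that fell (51.0%) and in 36.3% of all 27305 windows. TGACNNNGC was present in 21 of the 81 windows of genes that rose (25.9%), in 8 of the 51 of genes that fell (15.7%) and in 13.6% of all windows. The full set of windows includes genes not tested here, and the share among tested genes was not counted. Of the called genes of the AHR list 5 had a window and 3 of these held GCGTG, and of those of the NRF2 list 10 had a window and 3 held TGACNNNGC. Of the called genes of the cell cycle list, which fell, 10 had a window and 7 of these held GCGTG (70.0%). A match describes the letters only and was not tested as a binding site.

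The wells were deep enough for 11171 of the 23895 listed genes to pass a mean count of 1. Total UMI counts ran from 1270688 to 1534526 in the CSC wells and from 1316106 to 1509498 in the DMSO wells. PIK3CA itself (hg19 chr3:178865902-178957881) stood at 6.02, 17.0 and 12.7 CPM (counts scaled to a common library total with TMM factors) in DMSO replicates 1, 2 and 3, and at 6.40, 12.2 and 12.5 CPM in the CSC wells. The transgenic population was above the HcRed cells in every well, which held between 0.744 and 4.06 CPM under DMSO and between 1.45 and 2.62 CPM under CSC. CSC and DMSO wells overlapped for PIK3CA, with a log2 difference of -0.11 and an adjusted p of 0.951. The basal keratin KRT5 was at 118 to 163 CPM with CSC and 156 to 202 CPM with DMSO, and the epithelial adhesion gene EPCAM at 33.8 to 42.0 and 38.8 to 43.4 CPM. The leukocyte gene PTPRC, the endothelial gene VWF and the ciliated cell gene FOXJ1 had no count in any of the 6 wells. The secretory gene SCGB1A1 had no count in the CSC wells and at most 0.67 CPM with DMSO. Of the 13 ciliated and secretory markers in the files 8 were at 0 throughout, and the summed level of the list was 0.78 to 2.03 CPM with CSC and 1.5 to 2.04 CPM with DMSO. Of the 15 immune and endothelial markers 11 were at 0, and none of the 3 tested passed in limma-voom, with 1 at an unadjusted p under 0.05 and none in edgeR or DESeq2. This list was not silent. Its summed level was 33.43 to 38.55 CPM with CSC and 21.72 to 32.1 CPM with DMSO, and all 3 tested genes had a positive difference (median 0.56 log2 units).

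With CSC the PIK3CA cells carried more transcript of 7 genes of the AHR list and 13 of the NRF2 list, including both ferritin chains, and of AREG and IL1A. They carried less transcript of 13 genes of the cell cycle. NQO1 is counted in both the AHR and the NRF2 list, and IL1B is among the 7 of the AHR list. Of the 11171 genes tested, 159 passed an adjusted p of 0.05 in limma-voom, which is 1.42% of those tested. In the upward direction 100 genes passed (0.895%), and 59 passed downward (0.528%). A change of at least 2-fold was reached by 32 of the called genes, all of them higher with CSC. Over all tested genes the median log2 difference was -0.005 and 49.3% of differences were positive. CPM ranges of the CSC and DMSO wells were apart for 153 of the 159 called genes, against 14% of all tested genes. These ranges come from the same wells as the test, so for a called gene they describe the values and are not separate support. The downward count depended on single wells, at 37 without CSC replicate 1 and 35 without CSC replicate 2. In a bulk well, a lower share of cells that express a gene and less of its RNA per cell cannot be told apart. The plot of difference against level shows rises of more than 1 log2 unit from rare genes such as CYP1A1 up to FTL. FTL stood alone with such a rise among the most abundant genes. Every downward change of a called gene was below 1 log2 unit.

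**Figure D1:**
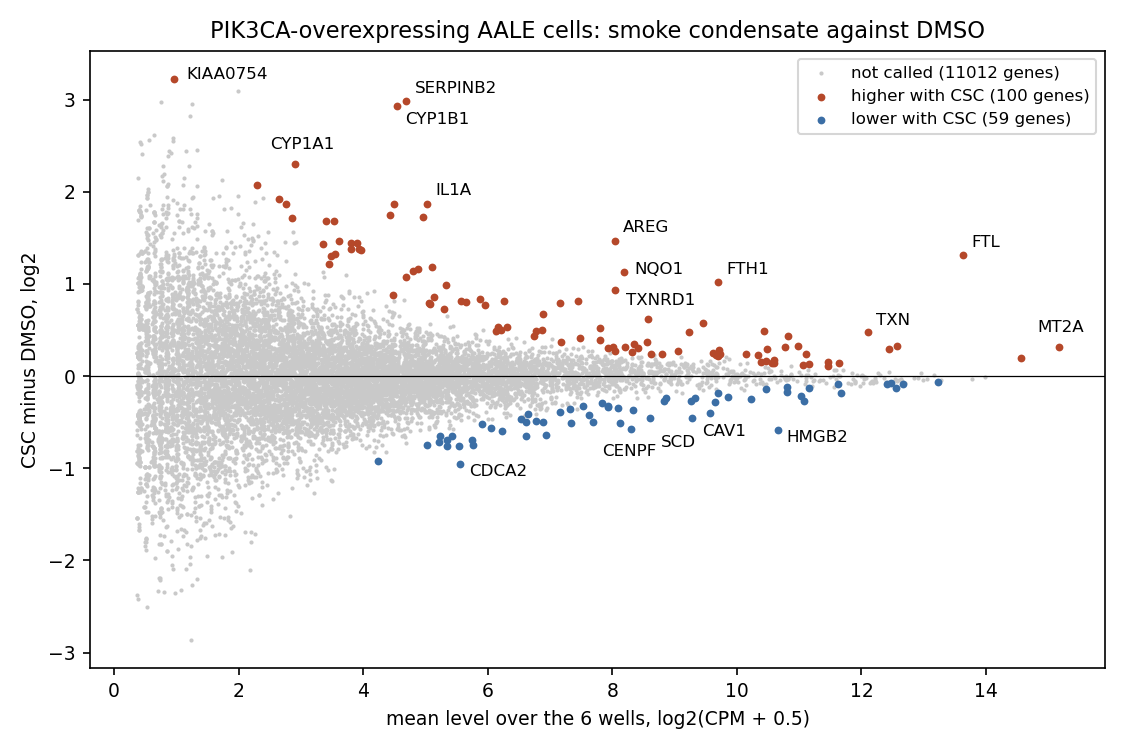
Log2 difference of CSC minus DMSO in PIK3CA cells (y axis) against the mean level over the 6 wells as log2(CPM + 0.5) (x axis), 1 point per gene. The 100 genes higher with CSC are red, the 59 lower are blue and the 11012 not called are grey. FTL stands alone among the most abundant genes, and no called gene fell by 1 log2 unit or more.

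The AHR battery was the list with the largest median log2 difference among the lists examined with more than 3 tested genes, at 1.13, and 7 of its 13 tested genes rose while none fell. CYP1B1 (hg19 chr2:38294116-38337044), a P450 that activates aromatic hydrocarbons, was at 34.1, 45.3 and 40.7 CPM with CSC and at 3.34, 4.07 and 9.74 CPM with DMSO. The lowest CSC well was above the highest DMSO well, and the rise was 2.93 log2 units (SE 0.32, adjusted p = 5.42e-08), or 7.64-fold. CYP1A1 (chr15:75011883-75017877), the classical P450 target of the receptor, was rarer, at 7.83, 14.2 and 13.3 CPM with CSC and 3.34, 2.72 and 0.749 CPM with DMSO. Its groups were also apart, by 2.30 log2 units (SE 0.50, adjusted p = 6.24e-03). TIPARP (chr3:156391024-156424559), the ADP-ribosyltransferase that represses AHR, was at 34.1, 32.5 and 36.8 CPM with CSC and 15.4, 18.3 and 15.0 CPM with DMSO, 2.11-fold higher (adjusted p = 0.00100).

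The other called genes of the AHR list were SERPINB2, IL1B, HSD17B2 and NQO1. SERPINB2 (chr18:61538926-61571122), an inhibitor of plasminogen activators, had the steepest rise of these, 7.89-fold. It stood at 53.4, 55.5 and 27.4 CPM with CSC, and even the lowest of these, replicate 3, was above the DMSO wells, all between 5.24 and 5.43 CPM (log2 difference 2.98, SE 0.35, adjusted p = 2.18e-07). HSD17B2, a steroid dehydrogenase, was at 10.7, 10.1 and 6.26 CPM against 4.68, 2.04 and 0.749 CPM, with an adjusted p of 0.0412. That call was lost without any of DMSO replicates 1, 2 and 3 (adjusted p = 0.0860, 0.129 and 0.213) or CSC replicates 1 and 2 (0.134 and 0.125). The receptor gene AHR had 5.69, 10.8 and 8.60 CPM with CSC and 6.02, 5.43 and 2.25 CPM with DMSO and did not pass (adjusted p = 0.467). Its partner ARNT had a log2 difference of 0.33 (adjusted p = 0.834). AHRR, the repressor of the receptor, and ALDH3A1 were too low to be tested.

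NRF2 targets rose together in number: 13 of 34 tested passed upward and none downward, with a median log2 difference of 0.48 over the list. NQO1 (chr16:69740899-69760571), the quinone reductase that belongs to both the NRF2 and the AHR list, was at 400, 410 and 383 CPM with CSC and 191, 178 and 181 CPM with DMSO. Wells within a group differed little and the groups were far apart (log2 difference 1.13, SE 0.07, adjusted p = 4.10e-14). The thioredoxin reductase TXNRD1 (chr12:104609557-104744085) was at 361, 336 and 338 CPM with CSC and 191, 174 and 184 CPM with DMSO, 1.91-fold higher (adjusted p = 4.07e-11). Its substrate thioredoxin, TXN, rose by a smaller step from a high level, from 3561 to 3763 CPM with DMSO to 4842 to 5252 CPM with CSC, a difference of 0.48 log2 units (adjusted p = 3.15e-19). PRDX1, a peroxidase recycled by thioredoxin, rose by 0.33 log2 units (adjusted p = 2.87e-09).

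The cystine importer SLC7A11, which supplies glutathione synthesis, was at 59.0, 49.4 and 50.1 CPM with CSC and 30.1, 29.2 and 21 CPM with DMSO, 1.98-fold higher (adjusted p = 3.57e-04). GPX2, a glutathione peroxidase of epithelia, was at 20.6, 18.3 and 20.3 CPM against 5.35, 8.15 and 8.24 CPM, a log2 difference of 1.45 (SE 0.29, adjusted p = 2.12e-03). For neither gene did the CSC and DMSO wells overlap. The autophagy receptor SQSTM1, which binds KEAP1, rose by 0.85 log2 units and PIR, an iron-binding nuclear protein, by 0.83. Among the aldo-keto reductases, AKR1C3 rose by 1.18 log2 units (SE 0.20, adjusted p = 1.48e-04), from 17.4, 21 and 23.2 CPM to 39.1, 44 and 57.9 CPM. AKR1C1 and AKR1C2 were also called, at adjusted p of 0.00396 and 0.0357, but AKR1C1 lost its call without DMSO replicate 2 (0.0544) and AKR1C2 without DMSO replicate 1 (0.376), DMSO replicate 2 (0.0894) or CSC replicate 2 (0.145). AKR1C2 also lost its call in DESeq2 (adjusted p = 0.456), with replicate numbers as a block (0.0742) and with counts thinned to the smallest well total (0.0972). The AKR1C genes are near-identical in sequence and the split of reads between them is uncertain.

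Not every NRF2 target was called. The glutamate-cysteine ligase subunits, the rate-limiting step of glutathione synthesis, had log2 differences of 0.86 for GCLM (adjusted p = 0.167) and 0.32 for GCLC (adjusted p = 0.741). HMOX1, the haem oxygenase often used to read this pathway, held 2.03 CPM in 1 CSC well and 0 in the other two, and was too low to be tested. The NRF2 gene itself, NFE2L2, was at 39.2 to 47.7 CPM with CSC and 36.0 to 52.3 CPM with DMSO, overlapping groups with a log2 difference of -0.06. Over fits that left out 1 well each, between 11 and 13 genes of the NRF2 list and between 6 and 7 of the AHR list were called. In edgeR 13 genes of the NRF2 list and 8 of the AHR list were called. DESeq2, which left many genes without an adjusted p, called 12 of the NRF2 list and 5 of the AHR list.

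Transcripts of both ferritin chains, which are also counted in the NRF2 list, rose. The ferritin light chain FTL (chr19:49468566-49470136) was at 18294, 18211 and 17528 CPM with CSC and at 7282, 7366 and 7319 CPM with DMSO. The wells of each group lay within a narrow band, and the log2 difference of 1.32 (SE 0.02) carried the smallest adjusted p of the comparison, 2.93e-38. The heavy chain FTH1 was at 990, 1241 and 1098 CPM with CSC and 569, 555 and 536 CPM with DMSO, 2.02-fold higher (adjusted p = 3.74e-16). The transferrin receptor TFRC, which brings iron into the cell, also rose, from 39.5, 56.3 and 42.0 CPM to 76.1, 79.1 and 75.1 CPM (log2 difference 0.77, adjusted p = 7.12e-04). These were the 3 called genes of 14 tested in the iron list, whose median log2 difference was 0.18. FTL and FTH1 have many processed copies in the genome, so their absolute levels are uncertain.

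Genes of glutathione enzymes and metallothioneins were also called. Of 24 tested glutathione S-transferases and glutathione enzymes 5 rose and none fell, with a median log2 difference of 0.15. Apart from SLC7A11 and GPX2, these were the microsomal transferase MGST1 (0.44, adjusted p = 4.14e-11), the glutaredoxin GLRX (0.80, adjusted p = 3.63e-07) and GSTM3 (0.52, adjusted p = 1.05e-04). Metallothioneins bind zinc and other metals, and 2 of the 9 tested rose. MT2A was at 42428, 42453 and 37387 CPM with CSC and 35410, 33079 and 29641 CPM with DMSO, 1.25-fold higher (adjusted p = 3.72e-11), and MT1X rose 1.24-fold. Neither was called when the spread was shared over all 82 wells of the series with a replicate number of 1 digit (adjusted p = 0.0612 and 0.0964). The MT2A call also did not hold when outlying variances were allowed for in the moderation (adjusted p = 0.297). Of 35 proteasome subunits and chaperones tested 6 rose, among them PSMB7 by 0.37 log2 units and the assembly factor POMP by 0.29. Only 1 proteasome gene was called when the spread was shared over all 82 wells.

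**Figure D2:**
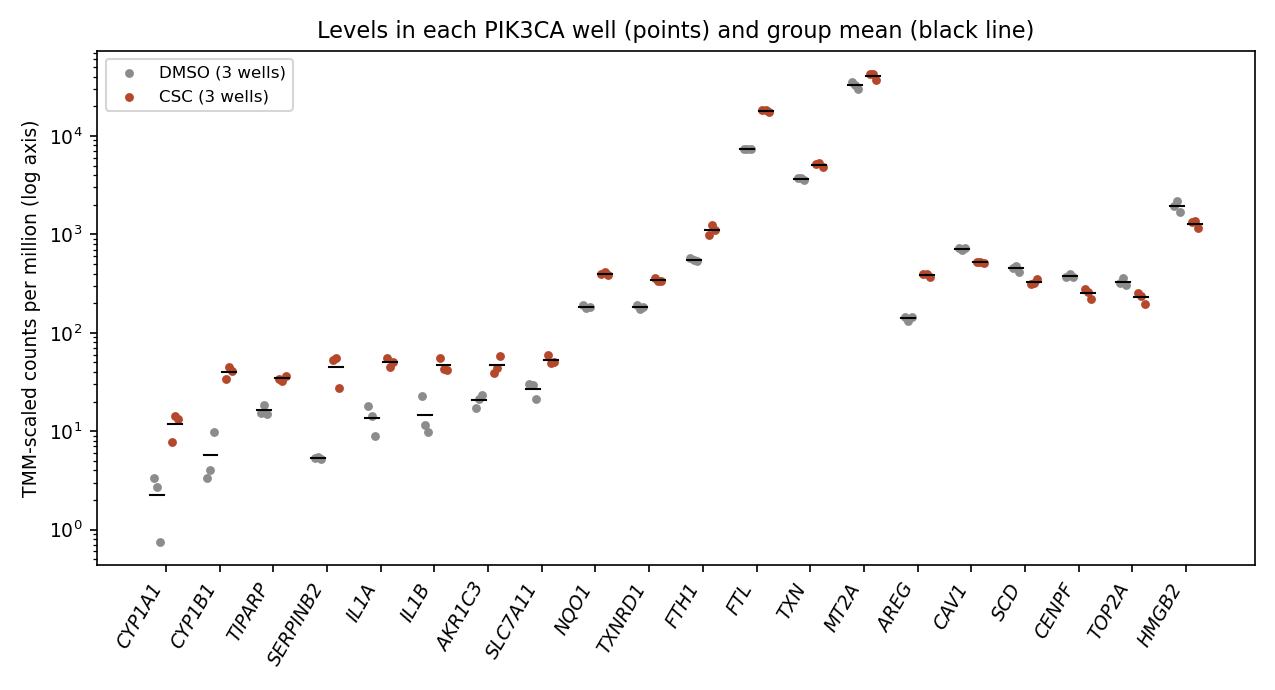
TMM-scaled CPM on a log axis in each of the 3 DMSO (grey) and 3 CSC (red) wells of PIK3CA cells for 20 genes, with the group mean as a black line. CYP1B1, FTL, NQO1 and AREG sit far above their DMSO wells, and HMGB2, CENPF, TOP2A, SCD and CAV1 sit below them.

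The growth factor gene AREG and the interleukin genes IL1A and IL1B also rose. AREG (chr4:75310853-75320722), which encodes the EGF receptor ligand amphiregulin, was at 396, 391 and 365 CPM with CSC and 144, 132 and 144 CPM with DMSO. No well of the groups came near the other group (log2 difference 1.47, SE 0.08, adjusted p = 3.56e-16). The related ligand EREG was at 12.1, 23.7 and 16.4 CPM against 10.0, 5.43 and 8.99 CPM and did not pass (adjusted p = 0.0663). Interleukin 1α, encoded by IL1A and stored in epithelial cells, was at 55.5, 44.6 and 50.1 CPM with CSC and 18.1, 14.3 and 8.99 CPM with DMSO, 3.66-fold higher (adjusted p = 2.78e-07). IL1B was at 55.5, 43.3 and 41.5 CPM against 22.7, 11.5 and 9.74 CPM, 3.31-fold higher (adjusted p = 4.20e-06). For both interleukin genes every CSC well was above every DMSO well. Over the list of chemokines, cytokines and NF-kB feedback genes 3 of 18 tested rose and none fell, 10 had a positive difference and the median log2 difference was 0.13. The third of these was CCL20, a chemokine that attracts dendritic cells and lymphocytes, with an adjusted p of 0.0318 and overlapping groups. The CCL20 call was lost without DMSO replicate 2 (adjusted p = 0.0909), DMSO replicate 3 (0.13), CSC replicate 1 (0.217) or CSC replicate 2 (0.141), and in DESeq2 (0.0628), which left 2 called genes in the list.

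Among immediate early and ERK feedback genes, 3 of 25 tested rose and none fell, and the median log2 difference of the list was 0.64. EGR1, a transcription factor induced within minutes of growth factor signals, was at 37.7, 38.5 and 36.8 CPM with CSC and 16.7, 20.4 and 14.2 CPM with DMSO (log2 difference 1.15, adjusted p = 3.13e-04). The MAP kinase phosphatase DUSP1 was at 41.3, 37.9 and 41.5 CPM against 22.1, 17.0 and 15.0 CPM (1.16, adjusted p = 2.19e-04). For both genes the groups were apart by more than the spread within either. The third called gene, IER3, lost its call without DMSO replicate 2 (adjusted p = 0.0962), DMSO replicate 3 (0.105) or CSC replicate 2 (0.0559). IER3 was also not called in DESeq2 (adjusted p = 0.163) or with counts thinned to the smallest well total (0.0755). The ERK phosphatase DUSP6 had a log2 difference of 0.92 and did not pass (adjusted p = 0.0640). At an unadjusted p under 0.05 the list held 10 genes, all higher, and without CSC replicate 3 the count of called genes was 6.

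SAT1, TIMP1 and S100A6 were among those with the smallest adjusted p. SAT1, which acetylates polyamines, was at 837, 855 and 817 CPM with CSC and 575, 561 and 560 CPM with DMSO (log2 difference 0.58, adjusted p = 5.95e-11). TIMP1, an inhibitor of matrix metalloproteinases, rose by 0.49 log2 units (adjusted p = 5.59e-12). The calcium-binding S100A6 rose by 0.32 (adjusted p = 2.12e-11), and its call was lost when outlying variances were allowed for (adjusted p = 0.204).

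Genes of the cell cycle moved the other way. Of 39 tested 13 fell and none rose, 5 had a positive difference, and the median log2 difference was -0.23. HMGB2 (chr4:174252527-174255583), a chromatin protein that peaks in dividing cells, was at 1326, 1354 and 1172 CPM with CSC and 1960, 2187 and 1698 CPM with DMSO. The highest CSC well was below the lowest DMSO well (log2 difference -0.58, SE 0.05, adjusted p = 5.66e-11), although the adjusted p was 0.168 when outlying variances were allowed for. CENPF, a kinetochore protein of mitotic cells, was at 277, 258 and 222 CPM against 368, 400 and 371 CPM (-0.57, adjusted p = 1.66e-06). The kinetochore motor CENPE was at 83.9, 71.0 and 71.2 CPM against 116, 127 and 115 CPM (-0.65, adjusted p = 3.57e-04). TOP2A, the topoisomerase that untangles replicated DNA, was at 253, 237 and 197 CPM against 324, 360 and 303 CPM (-0.51, adjusted p = 7.10e-05). None of these 4 genes had overlapping groups.

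The B-type cyclins of mitosis fell by less, CCNB2 by 0.37 log2 units and CCNB1 by 0.23. The cyclin CCNA2, of S phase and early mitosis, was at 29.2, 21.6 and 39.1 CPM with CSC and 54.2, 40.0 and 56.2 CPM with DMSO (log2 difference -0.76, adjusted p = 0.0260). The CCNA2 call was lost in DESeq2 (adjusted p = 0.178) and without DMSO replicate 1 (0.105), DMSO replicate 3 (0.143), CSC replicate 1 (0.0896) or CSC replicate 2 (0.365). Outside the list, CDCA2, a mitotic phosphatase regulator, had the largest called fall, at 37.7, 29.8 and 27.4 CPM against 66.9, 56.3 and 62.2 CPM (log2 difference -0.95, SE 0.16, adjusted p = 2.19e-04). KIF20A, a kinesin of cytokinesis, fell by 0.64 log2 units, the condensin subunit NCAPH by 0.76 and CDCA8, of the chromosomal passenger complex, by 0.75. The count of the cell cycle list was 8 without CSC replicate 1 and 8 without CSC replicate 2. It was also 8 in DESeq2 and 5 when the spread was shared over all 82 wells, where CCNB1 (adjusted p = 0.541) and CCNB2 (0.138) were no longer called. KIF20A, CENPF and TOP2A were not among the genes that lost a call in any alternative.

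Outside the cell cycle, CAV1 (chr7:116165048-116201233), the scaffold protein of caveolae, was at 525, 527 and 506 CPM with CSC and 731, 701 and 724 CPM with DMSO. The groups were well apart (log2 difference -0.45, SE 0.05, adjusted p = 2.18e-07), and CAV1 was the only called gene of the 7 caveolar genes tested. SCD, the desaturase that makes monounsaturated fatty acids, was at 312, 319 and 348 CPM against 455, 481 and 418 CPM (-0.46, adjusted p = 1.41e-05). It was 1 of 2 called genes of 32 tested for sterol and fatty acid synthesis, with CYP51A1 as the other, whose call was lost without DMSO replicate 1 (adjusted p = 0.195) or CSC replicate 2 (0.152). CYP51A1 was also not called in DESeq2 (adjusted p = 0.0868) or with the spread shared over all 82 wells (0.0717). Among mesenchymal and matrix genes SPARC alone fell of 20 tested. Its call was lost without CSC replicate 1 (0.131) or CSC replicate 2 (0.0717), and with the spread shared over all 82 wells (0.124). Of the ribosomal protein genes, 1 was called higher and 7 lower, and all have near-identical copies. Over all tested genes 0.895% were called higher and 0.528% lower. The number of ribosomal protein genes tested was not counted, so no share of them is given. RPL35, called lower, lost its call in DESeq2 (adjusted p = 0.171), with robust moderation (0.424) and with the spread shared over all 82 wells (0.795).

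No called gene was found in several pathways that PI3-kinase or stress could engage. None of 31 tested genes of the PI3K, AKT and mTOR list passed (median log2 difference -0.11), and neither did any of 18 FOXO targets (0.06), 28 ATF4 and endoplasmic reticulum stress genes (0.14), 21 p53 targets (0.14) or 17 heat shock genes (-0.04). At an unadjusted p under 0.05 these 5 lists held 3, 1, 3, 3 and 1 genes in that order, and edgeR and DESeq2 called none of their genes either. CDKN1A, the p53 target that blocks cyclin-dependent kinases, had a log2 difference of 0.62 and an adjusted p of 0.409. Interferon-stimulated genes had the second lowest median of the lists, -0.30 over 31 tested, with none called in limma-voom or DESeq2, 1 lower in edgeR and 3 at an unadjusted p under 0.05. Of 23 basal and squamous keratin and junction genes 1 was called, the laminin chain LAMA3 (log2 difference 0.50), a call lost without DMSO replicate 1 (adjusted p = 0.110), DMSO replicate 2 (0.0815) or CSC replicate 2 (0.176). LAMA3 was also not called in DESeq2 (adjusted p = 0.145) or with the spread shared over all 82 wells (0.103). Of 26 glycolysis and hypoxia genes 2 rose, ENO1 and GAPDH, both by less than 0.2 log2 units and neither of them in edgeR (adjusted p = 0.102 and 0.0792). A list without a called gene is not thereby shown to be unaffected.

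**Figure D3:**
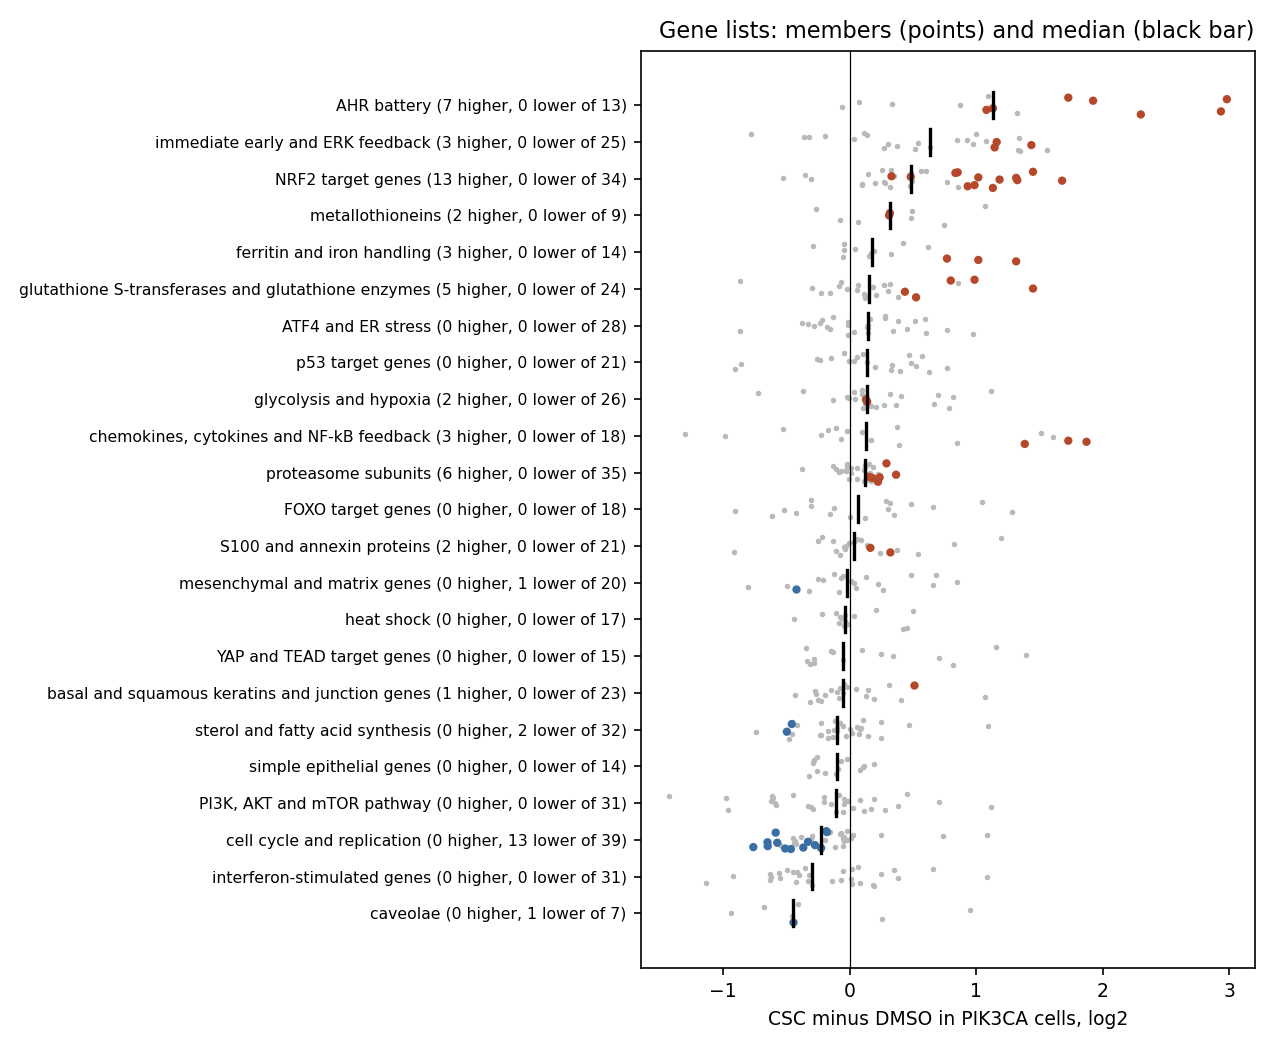
Log2 difference of CSC minus DMSO in PIK3CA cells for the tested members of 23 gene lists, 1 point per gene, with genes called higher in red, called lower in blue and the list median as a black bar. The AHR battery has the highest median (1.13) and the caveolae list the lowest (-0.45). The cell cycle list, at -0.23, holds 13 of the genes called lower, while the PI3K, AKT and mTOR list holds no called gene.

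Whether this response differed from that of other AALE populations was asked in a fit of the difference between responses. Against the response of HcRed cells, no gene of 11237 passed in limma-voom (0%). HcRed CSC replicate 1 had 752338 UMI counts, the lowest total of the wells in this fit, and the count was also 0 without it. At an unadjusted p under 0.05 there were 649 genes, edgeR called 1 gene and DESeq2 called 0. The difference of responses was -0.02 log2 units for NQO1 with a 95% interval from -0.25 to 0.21, and -0.13 for CYP1B1 with an interval from -0.92 to 0.65. For CYP1A1 it was -1.14 with an interval from -2.54 to 0.26. The interval for NQO1 was narrow, and those of the P450 genes left room for differences of more than 1 log2 unit for CYP1A1. Leaving out DMSO replicate 3 of the PIK3CA cells raised the count to 3, and leaving out CSC replicate 1 raised it to 1.

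Each population's own CSC minus DMSO difference shared no well with the PIK3CA comparison, and the genes called in PIK3CA cells mostly kept their sign. Of the 100 genes higher with CSC in PIK3CA cells, 98 of 100 tested had a positive difference in HcRed cells, 88 of 98 in GFP cells, 91 of 99 in NRF2 cells and 79 of 98 in FAT1 cells. Their median log2 differences there were 0.44, 0.36, 0.34 and 0.21, where between 48.6% and 50.2% of all tested genes were positive. Of the 59 genes lower with CSC, 50, 55, 57 and 54 had a negative difference in the same 4 populations, with medians of -0.11, -0.16, -0.23 and -0.26. In these populations too, CSC and DMSO wells lay in different plate rows, so row and chemical cannot be told apart. HcRed and GFP wells shared rows A and C with the PIK3CA wells, but NRF2 and FAT1 wells lay in rows B (DMSO) and D (CSC). FAT1 CSC replicates 2 and 3 had barcodes with 3 G or C bases, against 1 in FAT1 CSC replicate 1. For NRF2 and FAT1 cells, a difference from the PIK3CA response cannot be told apart from one of plate row.

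Against the mean response of the 4 other populations, 3 of 11371 genes passed in limma-voom (0.0264%), all with a larger difference in PIK3CA cells, and 647 had an unadjusted p under 0.05. MT1X, a metallothionein, had a difference of responses of 0.45 log2 units (SE 0.06, adjusted p = 1.09e-06). In PIK3CA cells MT1X was at 1914, 2000 and 1879 CPM with CSC and 1585, 1598 and 1538 CPM with DMSO. In NRF2 cells it ran the other way, at 1466, 1628 and 1535 CPM with CSC and 1940, 2065 and 2082 CPM with DMSO. The CSC minus DMSO difference of MT1X was 0.16 in HcRed, -0.25 in GFP, -0.39 in NRF2 and -0.05 in FAT1 cells. MT1X kept its call in edgeR and DESeq2 and without each PIK3CA well in turn.

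FTL had a positive difference in all 5 populations, at 1.32 log2 units in PIK3CA, 1.24 in HcRed, 1.20 in GFP, 1.08 in NRF2 and 0.92 in FAT1 cells. Its difference of responses was 0.21 (SE 0.03, adjusted p = 4.33e-06), and the call was not made by edgeR (adjusted p = 0.348) or DESeq2 (0.183). RPL6, a ribosomal protein gene, had a difference of 0.27 (adjusted p = 0.0482). It was at 5037, 6686 and 6616 CPM with CSC and 4874, 5095 and 5100 CPM with DMSO in PIK3CA cells, with replicate 1 of the CSC wells inside the DMSO range. The RPL6 call was lost without PIK3CA DMSO replicate 1 (adjusted p = 0.522) or 2 (0.0933) and without PIK3CA CSC replicate 2 (0.797) or 3 (0.381). DESeq2 did not call RPL6. Without the filter on low counts, neither FTL (adjusted p = 0.244) nor RPL6 (0.63) passed in limma-voom.

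CYP1A1 pointed downward in this comparison without passing. Its response was 2.22 log2 units below the mean of the other populations (difference -2.22, SE 0.59, 95% interval -3.39 to -1.05, adjusted p = 0.425 after adjustment over all genes). CYP1A1 with CSC was at 7.83 to 14.2 CPM in PIK3CA cells, 20.1 to 31.8 in HcRed, 43.9 to 53.8 in GFP, 34.5 to 57.8 in NRF2 and 75.0 to 85.7 CPM in FAT1 cells. The PIK3CA wells did not overlap those of any other population. CYP1B1 with CSC was at 34.1 to 45.3 CPM in PIK3CA cells and between 74.8 and 153 CPM in the wells of the 4 others, and its difference of responses was -0.83 (adjusted p = 0.833). TIPARP had a difference of -0.74 (adjusted p = 0.636). In the plot of responses by population PIK3CA cells are lowest for these 3 AHR targets, which were singled out after their values were seen. Over the whole AHR battery, 7 of the 14 tested genes had a positive difference of responses against the 4 populations (median -0.01) and 8 of 14 against HcRed cells (median 0.04), with none called in either.

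**Figure D4:**
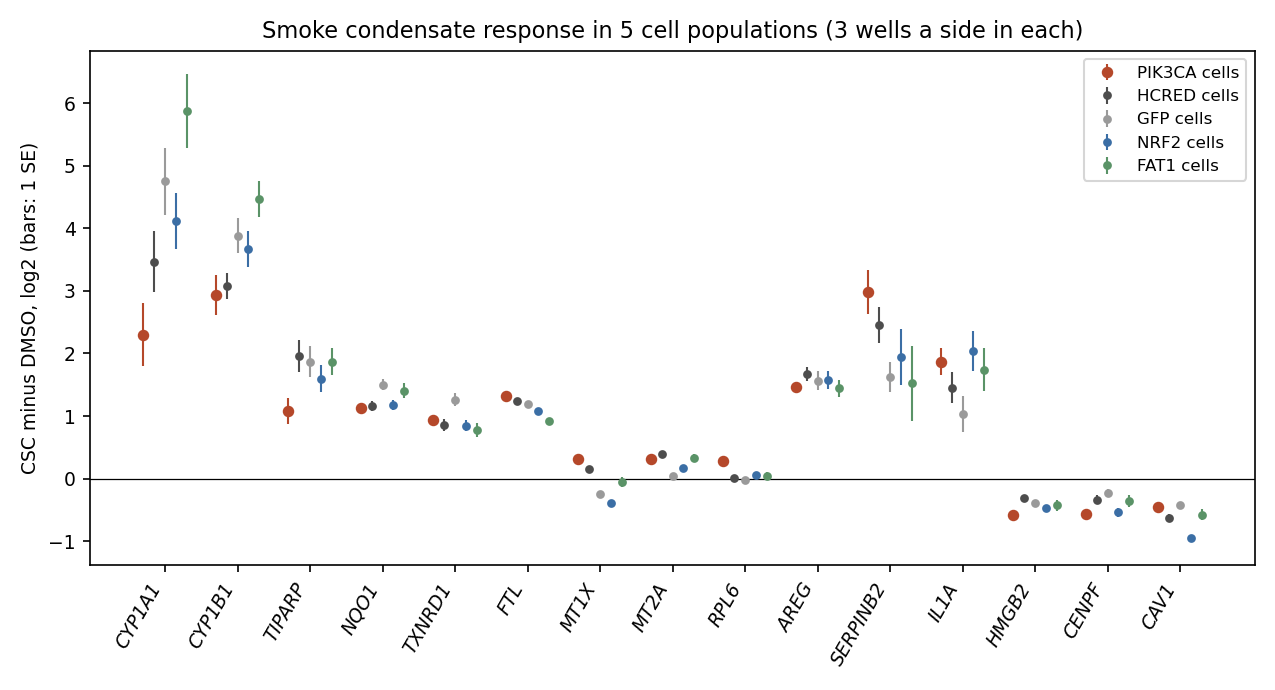
Log2 difference of CSC minus DMSO (y axis) for 15 genes in PIK3CA, HcRed, GFP, NRF2 and FAT1 cells, each from 3 wells a side, with bars of 1 SE. PIK3CA cells (red) have the lowest value for CYP1A1 (2.30), CYP1B1 (2.93) and TIPARP (1.08), and the highest for FTL (1.32), MT1X (0.31) and RPL6 (0.29).

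The 3 smoke chemicals were compared within PIK3CA cells. The doses differ in kind (24 µg/ml of a mixture, 173 µM BaP, 490 µM NNK), and each chemical had its own plate row, so the values below are set side by side. Total counts ran from 1251909 to 1397605 in the BaP wells and from 1015082 to 1123119 in the NNK wells. Well barcodes held 1 G or C base in the CSC and DMSO wells and 5 in the BaP and NNK wells, and the part of row or barcode in these differences cannot be told apart from the chemical. The comparisons with DMSO, BaP and NNK share the CSC wells.

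Against BaP, 117 of 11135 genes passed in limma-voom (1.05%), 50 higher with CSC (0.449%) and 67 lower (0.602%). Of the AHR battery 3 of 13 tested genes were called higher with CSC than with BaP and none lower, with a median difference of 0.34 log2 units. The 3 were NQO1, which is also in the NRF2 list, IL1B, which is also in the cytokine list, and SERPINB2. The P450 genes were not among the called. CYP1A1 was at 14.6, 10.6 and 18.3 CPM with BaP, against 7.83 to 14.2 CPM with CSC, and its difference was -0.32 log2 units with a 95% interval from -0.89 to 0.25 (adjusted p = 0.797). CYP1B1 was at 32.9, 32.7 and 47.8 CPM with BaP, a difference of 0.09 with an interval from -0.26 to 0.44. NQO1 was at 277, 259 and 260 CPM with BaP, below every CSC well (difference 0.57, adjusted p = 2.14e-07), and 8 of 36 tested NRF2 targets were called higher with CSC and none lower (median difference 0.24). FTL was at 13291, 12801 and 12845 CPM with BaP, between its DMSO and CSC levels (difference 0.45, adjusted p = 7.71e-32).

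AREG was at 194, 207 and 203 CPM with BaP, 0.91 log2 units below CSC (adjusted p = 4.01e-12). SERPINB2 was at 5.84, 12.2 and 12.8 CPM with BaP, and the CSC wells were higher by 2.14 log2 units (adjusted p = 5.64e-06). IL1A (0.79) and IL1B (1.20) were also higher with CSC, and they were the 2 called genes of 18 tested in the cytokine list, of which 8 had a positive difference (median -0.17). Also higher with CSC were FTH1 (0.57), TXN (0.28) and TIMP1 (0.50). Among the genes lower with CSC than with BaP were HMGB2 (-0.39), the replication-dependent histone gene HIST1H4C (-0.29), the antigen presentation gene B2M (-0.21), the actin-binding TMSB4X (-0.21) and FDPS, an enzyme of isoprenoid synthesis. FDPS was at 288, 319 and 316 CPM with CSC and 437, 426 and 434 CPM with BaP (-0.51, adjusted p = 7.90e-07). HIST1H4C and FDPS have near-identical relatives elsewhere in the genome. Without CSC replicate 2 the count of called genes was 70.

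Against NNK, 186 of 10922 genes passed in limma-voom (1.70%), 62 higher with CSC (0.568%) and 124 lower (1.14%). NQO1 was at 207, 212 and 206 CPM with NNK, against 383 to 410 CPM with CSC (difference 0.94, adjusted p = 9.93e-14). CYP1B1 was at 25.0, 15.2 and 19.3 CPM with NNK, below every CSC well (1.04, adjusted p = 1.93e-03). CYP1A1 was at 8.34, 9.47 and 7.35 CPM with NNK, overlapping the CSC wells (0.43, adjusted p = 0.703). SERPINB2 was at 3.13, 2.84 and 5.51 CPM with NNK, 3.42 log2 units below CSC (adjusted p = 4.09e-08). Of the AHR list 6 of 13 and of the NRF2 list 11 of 34 were higher with CSC, and no gene of either list was called lower.

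The abundant genes with the smallest adjusted p on the higher side were FTL (1.04), FTH1 (1.19), TXN (0.38), MT2A (0.23) and the nuclear RNA MALAT1 (0.15, which edgeR did not call, adjusted p = 0.0707). On the lower side they were the glycolytic enzyme ENO1 (-0.49), FDPS (-0.95), HIST1H4C (-0.46) and the ribosomal protein genes RPLP1 (-0.30) and RPS23 (-0.34). FDPS was at 593, 576 and 632 CPM with NNK, the highest of the 4 treatments, and at 346 to 374 CPM with DMSO. CAV1 was at 688, 697 and 607 CPM with NNK, above the CSC wells (-0.33, adjusted p = 5.05e-04), and at 530, 466 and 505 CPM with BaP, where it overlapped them. Genes of sterol and fatty acid synthesis, to which FDPS belongs, were called lower with CSC than with NNK in 13 of 31 tested and higher in none, with a median difference of -0.47 log2 units. Of the cell cycle list 8 of 39 tested were called lower (median -0.18).

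**Figure D5:**
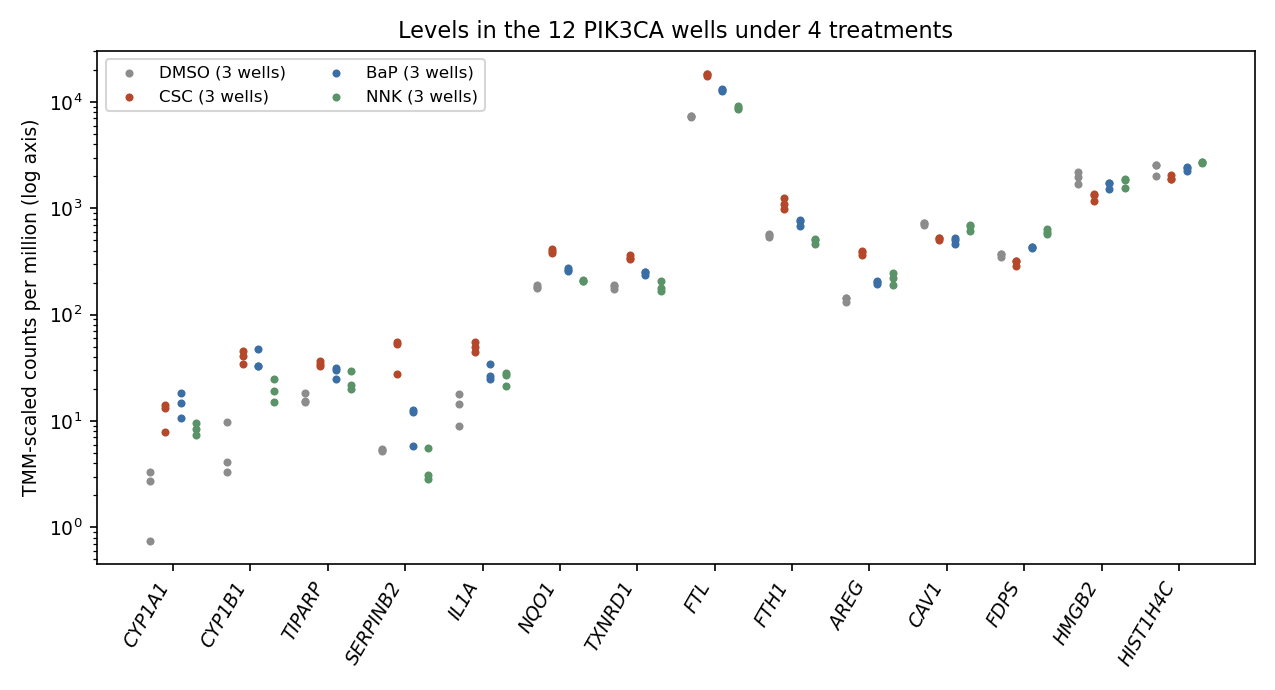
TMM-scaled CPM on a log axis in the 12 PIK3CA wells, 3 each with DMSO (grey), CSC (red), BaP (blue) and NNK (green), for 14 genes. FTL, FTH1, NQO1, TXNRD1, AREG and SERPINB2 are highest with CSC, and FDPS is highest with NNK. CYP1A1 and CYP1B1 overlap between CSC and BaP, and CYP1A1 also overlaps between CSC and NNK. The NNK wells of both P450 genes lie above their DMSO wells.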

How the data were processed

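Raw UMI counts per gene were used as deposited by the authors, who per the methods received them already quantified from reads placed on hg19 transcripts with BWA 0.7.10 (submitters' processing notes). Counts were analysed in R 4.3.3 with TMM factors from edgeR 4.0.16 and limma 3.58.1 (voom weights, empirical Bayes), on genes with a mean count above 1 in the compared wells, with two-sided tests and Benjamini-Hochberg adjustment over all tested genes at 0.05. Variances were shrunk strongly (prior degrees of freedom 32), so very small p-values rest largely on variance shared between genes. Alternatives used edgeR quasi-likelihood, DESeq2 1.42.0, robust moderation (which allows for outlying variances) and other filters, scalings and sets of wells. CPM values are counts divided by the TMM-scaled library total. The wells, gene lists and tests were chosen with earlier results of these data known. Genes named are PIK3CA, CYP1B1 and NQO1, the 12 higher and 12 lower with the smallest adjusted p and the 5 with the largest change each way among genes with ranges apart, called list members, and up to 5 each way in every other comparison. The text gives a selection, and list members that did not pass are named with their values. Gene positions are hg19 (GENCODE). The scripts were tested on simulated data. Counts of 3 wells a side set the precision, and no interval is given for single wells.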

Additional observations from a re-analysis of the deposited data

Results flagged for a closer look

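The response of PIK3CA cells to CSC differed from the mean response of HcRed, GFP, NRF2 and FAT1 cells for 3 genes by a test of the difference itself in limma-voom. The difference of responses was 0.449 log2 units for MT1X, whose CSC minus DMSO difference was negative in 3 of the 4 other populations. It was 0.212 for FTL, which was higher with CSC in every population. For RPL6 it was 0.27, and its 6 PIK3CA wells overlapped between CSC and DMSO. FTL was not called by edgeR or DESeq2, and RPL6 was not called by DESeq2. Neither gene was called without the filter on low counts. The NRF2 and FAT1 wells lay in other plate rows than the PIK3CA wells. What sets these differences apart was not tested.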

How the results depend on the processing

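Of 1650 values of named genes under alternatives, 1505 kept their direction and side of the threshold, 145 kept direction only and none reversed. Named genes that an alternative left without an adjusted p are not among these values. The count of 159 genes was 85 in DESeq2, which left many genes without an adjusted p, 75 (56 higher, 19 lower) with the spread shared over all 82 wells, and 108 to 152 with 1 well left out. Against HcRed cells the count of 0 was 1 in edgeR and 0 to 3 with 1 well left out. Against the 4 other populations the count of 3 was 1 in DESeq2, 1 without a filter on low counts, 5 with RLE factors, 5 with a mean count over 5, and 2 to 4 with 1 well left out. CSC against BaP gave 53 genes in DESeq2 and 70 to 102 with 1 well left out, and CSC against NNK gave 133 to 233. Causes were not tested.

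Taking replicate numbers as a block gave counts of 252 (138 higher, 114 lower) against DMSO, 3 against HcRed cells and 13 against the 4 other populations. Deviations of same-numbered CSC and DMSO wells correlated at -0.0107, 0.0397 and 0.0821 over 4141 genes. Wells with different numbers correlated at -0.0712 to 0.0357. CSC replicate 1 correlated best with DMSO replicate 2, and CSC replicates 2 and 3 best with the DMSO well of their own number. These small values do not settle whether the numbers mark pairs, and the main fits did not treat them as pairs. Wells left out singly leave 2 in a group, and genes at a few counts per well could not be resolved at this depth.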

Other observations

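Among the 5 genes with the largest rise, KIAA0754 was seen with 4 counts in each CSC well and with no count in the DMSO wells. Taking 3 counts over the DMSO group as the floor of 0.697 CPM, it was at least 4.15-fold higher with CSC. LOC100506385 was at 7.11, 7.44 and 7.04 CPM with CSC and 2.01, 0.679 and 2.25 CPM with DMSO. Both genes passed in limma-voom (adjusted p = 0.0391 and 0.0397), and both lost the call whichever well was left out, at 0.0829 to 0.291 for KIAA0754 and 0.0639 to 0.217 for LOC100506385. SHCBP1, a mitotic gene, fell by 0.93 log2 units (adjusted p = 0.0391) and kept that call only without DMSO replicate 2 among the 6 fits with 1 well left out, with adjusted p of 0.0589 to 0.35 in the others. DESeq2 did not call SHCBP1 either (adjusted p = 0.301).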
